A study of Homo sapiens with 6 samples.

Results

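The MYC network is a family of transcription factors that bind DNA as pairs, and the 10 genes described here are MYC, MAX, MXD1, MXD3, MXD4, MXI1, MNT and MLX together with TXNIP and ARRDC4, glucose-responsive genes that MLX and its partners activate. These genes and the gene lists used below were chosen by name, with earlier results of these data known. All 10 were found among the 56638 gene symbols of the count files and passed the count minimum. The data are RNA-seq read counts from HCT116, an established line of human colorectal carcinoma cells, with 3 wild type (WT) samples and 3 METTL3-knockout (METTL3-KO) samples. All 6 samples were cultured in serum-containing McCoy's medium and carry passage 16 to 19 in the labels, with no other treatment named. METTL3 is the catalytic subunit of the complex that places m6A, a methyl mark on adenosines of mRNA. By the study's methods, the METTL3-KO cells were made by lentiviral CRISPR-Cas9 editing, puromycin selection and limiting dilution, and they are a single monoclonal line, so effects of the knockout and of the clone cannot be told apart. The count files abbreviate the groups as NC and SiM3 and carry other WT replicate numbers than the labels. The labels, which name WT and METTL3 knockout, were followed for the groups and numbers given here. The abbreviation SiM3 does not name a knockout, and whether these samples came from the knockout line was not tested. Nothing says that the samples of a group came from separate cultures, so p-values measure the spread between these samples, which may be technical.

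MYC binds the E-box, the DNA word CACGTG, as a dimer with MAX and drives genes of ribosome synthesis, nucleotide synthesis and cell growth. The MXD proteins, MXI1 and MNT compete for MAX, bind the same word and recruit the SIN3 repressor complex. MLX is a MAX-like partner that binds some of the MXD proteins and MNT, and also MLXIP (MondoA) and MLXIPL (ChREBP), which sense glucose 6-phosphate and switch on TXNIP and ARRDC4. TXNIP and ARRDC4 are alpha-arrestins that restrain glucose uptake. In the colon, MYC is a well known target of Wnt signalling, the pathway that HCT116 cells activate through a beta-catenin mutation.

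The DNA words that these factors read are shown here because the members both make the factors and, in some cases, carry the words in their own promoters. RefSeq promoter windows, from 250 bases before to 50 bases after an annotated start on GRCh38.p14, matched 9 of the 10 members, with 13 windows in all. MYC had no window, so its promoter was not searched. Both strands were searched. The word CACGTG occurs in 4 of the 13 windows, against 7.26% of all 35116 windows. The 4 genes are MLX, ARRDC4, MNT and MXD4, and stretches of 30 bases around the word, each on the strand of its gene with CACGTG in capitals, are:
MLX: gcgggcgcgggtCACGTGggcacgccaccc
ARRDC4: aaacggcctgtgCACGTGcacgccggagcc
MNT: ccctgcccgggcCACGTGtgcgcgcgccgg
MXD4: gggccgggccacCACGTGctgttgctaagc

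These stretches lie at chr17:42567038-42567067 (plus strand) for MLX, chr15:97960481-97960510 (plus strand) for ARRDC4, chr17:2401236-2401265 (minus strand) for MNT and chr4:2262330-2262359 (minus strand) for MXD4. The first base of the word is at -50 from the MLX start, -210 from ARRDC4, -193 from MNT and -238 from MXD4. MLXIP and MLXIPL with MLX read a double word, the carbohydrate response element, in which E-box-like sites are separated by 5 bases. The spelling CACGNG, then 5 bases of any kind, then CACGNG, which includes CACGTG where N is T, occurs in 0.057% of all windows and in 1 window of the members, at -88 from the TXNIP start. This stretch, at chr1:145996644-145996673 (minus strand of GRCh38.p14), is printed with both sites in capitals:
TXNIP: gatgtgCACGAGggcagCACGAGcctccgg
A match of letters describes the window and is not a measured binding site.

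The libraries held 20936091 to 30142144 counts on genes. METTL3 itself had 841, 682 and 623 counts in WT and 219, 169 and 162 in METTL3-KO samples. The log2 fold change was -2.04 (SE 0.0906), and its p from the quasi-likelihood test of edgeR was 1.59e-07 after the Benjamini-Hochberg adjustment used throughout. Of 22452 genes tested, 5945 (26.5%) passed an adjusted p under 0.05, 13.2% lower and 13.3% higher in METTL3-KO cells. The third sample of each group stood apart, since counts of WT replicate 3 differed from those of the other WT samples by a chi-square of 23.1 and 23.0 per gene, and METTL3-KO replicate 3 from its group by 11.2 and 8.32, where replicates 1 and 2 gave 2.58 and 2.34. Calls of the members and of named listed genes that change without the third sample of both groups are given beside them. That fit rests on replicates 1 and 2 of each group and called 9378 genes, where the fit of all samples called 5945. Its calls therefore stand against a larger background. Of 6 epithelial markers, 4 (KRT8, KRT19, CDH1 and VIL1) were higher and 0 lower in METTL3-KO cells. The 6 summed to 5792 to 7181 CPM in WT and 8287 to 9241 CPM in METTL3-KO samples. Most of this was KRT8, at 3478 to 4491 CPM in WT and 4971 to 5655 CPM in METTL3-KO samples. EPCAM was lower at -0.10 on the log2 scale without the third samples (edgeR adjusted p = 0.0247). The 7 leukocyte, endothelial and fibroblast markers summed to 4.78 to 6.05 and 6.3 to 7.99 CPM, with PECAM1 and COL3A1 at 0 counts and PTPRC, CD3E and DCN at 2 or fewer. Nearly all of that sum was COL1A1, a collagen gene of fibroblasts, at 4.69 to 6.05 CPM in WT and 6.24 to 7.87 CPM in METTL3-KO samples (log2 fold change 0.36, edgeR adjusted p = 0.0803). The part of these markers in the results was not tested.

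Of the 10 members, TXNIP, ARRDC4 and MXD3 were lower and MLX and MXD1 higher in METTL3-KO cells, while MYC, MAX, MXI1, MXD4 and MNT did not pass the threshold. The 5 called members stand against 26.5% of all tested genes, and against 41.1% of the 9721 genes with a mean level of at least 10.6 CPM, the lowest mean of a member, so the count by itself is near the background. In 6 members the groups did not overlap, against 40.9% of all tested genes and 54.3% of those at this level, which is near the background too. The median log2 fold change of the members was -0.03, and that of all tested genes was -0.02. In bulk samples such as these, fewer cells expressing a gene and less RNA per cell cannot be told apart.

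**Figure D1:**
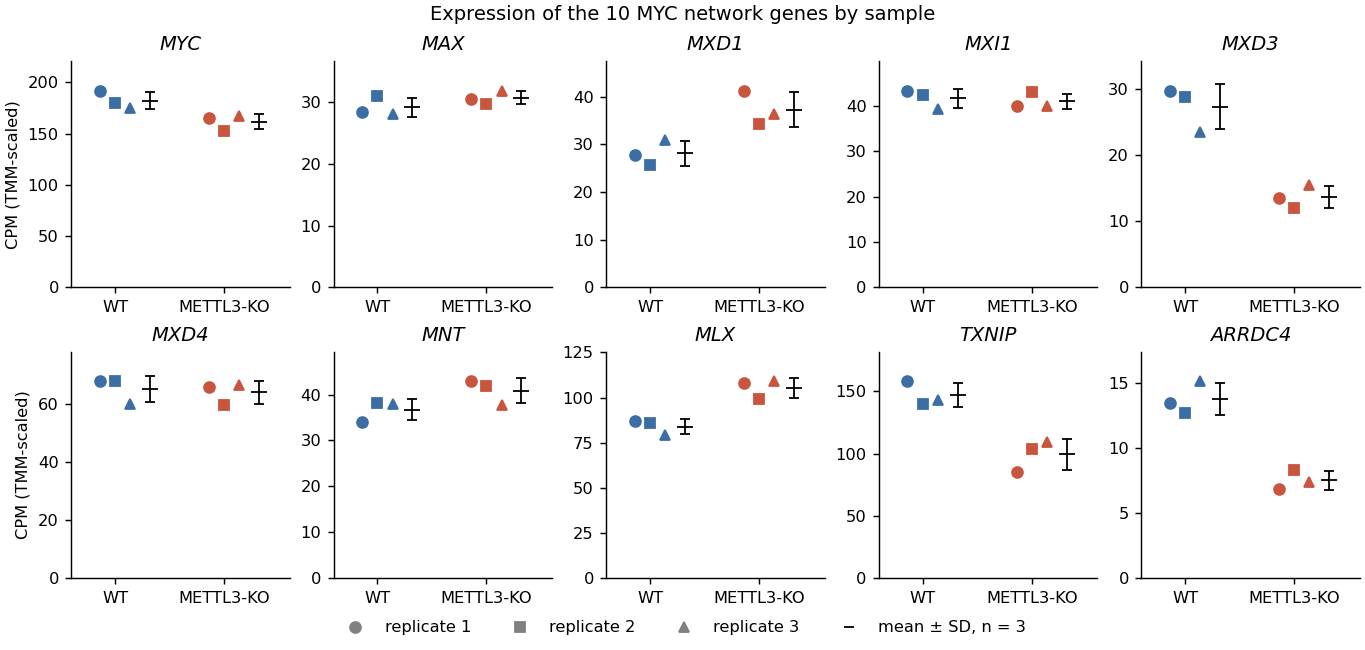
Expression of the 10 members in each sample, in CPM (counts scaled by library size and TMM, linear axes from 0), with WT in blue and METTL3-KO in red, one symbol per replicate and the mean ± SD (n = 3) beside them. The groups do not overlap for MYC, MXD1, MXD3, MLX, TXNIP and ARRDC4, and overlap for MAX, MXI1, MXD4 and MNT.

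TXNIP binds thioredoxin and promotes the removal of glucose transporters from the cell surface. CPM are counts scaled by library size and TMM. TXNIP was at 158, 140 and 143 CPM in the WT samples and at 85.3, 104 and 109 CPM in the METTL3-KO samples. The groups did not overlap, and METTL3-KO replicate 1 was the lowest. The means were 147 ± 9.31 CPM in WT and 99.4 ± 12.5 CPM in METTL3-KO cells (SD, n = 3 each). On the log2 scale the fold change was -0.57 (edgeR adjusted p = 0.00096, SE 0.0955), a level 32.5% lower. The gene lies on chromosome 1 of GRCh37, from 145438490 to 145442635, and shares no exon base with another annotated gene. Without METTL3-KO replicate 1 the log2 fold change was -0.46, and without the third sample of both groups it was -0.67. It passed the threshold under all 14 alternatives, with adjusted p from 8.86e-15 to 0.0141.

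ARRDC4 is the closest relative of TXNIP and shares its control by glucose. It was at 13.4, 12.7 and 15.1 CPM in WT and at 6.87, 8.28 and 7.36 CPM in METTL3-KO samples, resting on 287 to 368 and 173 to 207 counts. The groups were well apart, since the highest METTL3-KO value was under the lowest WT value by more than the range within either group. The mean fell from 13.7 ± 1.21 to 7.5 ± 0.718 CPM (SD, n = 3 each), a log2 fold change of -0.87 (edgeR adjusted p = 0.000163, SE 0.113). Over the 14 alternatives the log2 fold change ran from -0.94 to -0.80, and it passed in each. ARRDC4 lies on chromosome 15 of GRCh37 from 98503933 to 98517063 and shares no exon base with another gene. Per length, the ratio of ARRDC4 to TXNIP was 0.0606, 0.0646 and 0.0748 in WT and 0.0574, 0.0569 and 0.048 in METTL3-KO samples.

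MLX, the partner through which TXNIP and ARRDC4 are activated, was higher. It was at 86.8, 85.9 and 79 CPM in WT and at 108, 99 and 109 CPM in METTL3-KO samples. The groups did not overlap, and the means were 83.9 ± 4.28 and 105 ± 5.39 CPM (SD, n = 3 each). MLX rose by a log2 fold change of 0.33 (edgeR adjusted p = 0.00685, SE 0.075). MLX (chromosome 17 of GRCh37, 40719090 to 40725257) shares 18.2% of its exon bases with PSMC3IP on the opposite strand, a recombination factor that itself fell by 0.71 on the log2 scale (adjusted p = 0.00242). Reads in the shared stretch were set aside or assigned by the authors' counting, and the strand setting of that counting is not given in the sources used here.

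MLXIP, the MondoA subunit that pairs with MLX, is not one of the 10 genes but belongs to the list of other network genes. It had 3092, 2360 and 2442 counts in WT and 5020, 3429 and 3499 counts in METTL3-KO samples, or 113, 104 and 115 against 167, 156 and 149 CPM. It rose by 0.51 on the log2 scale (edgeR adjusted p = 0.000383, SE 0.0746), with no overlap of the groups. MLXIPL, the ChREBP subunit best known from liver, was low, at 2.67 ± 0.608 CPM in WT and 3.43 ± 0.196 CPM in METTL3-KO cells (SD, n = 3 each), and its log2 fold change of 0.36 did not pass (adjusted p = 0.173). Per length, the MLXIP to TXNIP ratio was 0.245 to 0.274 in the WT samples and 0.468 to 0.671 in the METTL3-KO samples. The counts are of mRNA, so neither the proteins nor where in the cell they were can be read from them.

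The other genes with a known link to glucose-sensing MLX dimers did not move as one. Of 10 listed glucose-response targets besides TXNIP and ARRDC4, 8 were tested, of which 3 were lower and 4 higher, with a median log2 fold change of 0.10. In either direction, 26.5% of all tested genes and 41.1% of those at the members' level were called. RGS16, a regulator of G protein signalling, was lower by a log2 fold change of -0.97 (edgeR adjusted p = 0.000176, SE 0.128), with 182 to 216 counts in WT and 80 to 134 in METTL3-KO samples. ACACB, the mitochondrial acetyl-CoA carboxylase (log2 fold change -0.70), and HK2, a hexokinase (-0.69), were lower as well. On the other side, GPD1, which links glycolysis to glycerol lipids, rose by 0.74, FASN, the fatty acid synthase, by 0.59, PFKFB3, which makes the activator of phosphofructokinase, by 0.40 and KLF10, a transcription factor, by 0.30. FGF21, a hormone with 2 to 5 counts per sample, did not pass (log2 fold change -0.09, adjusted p = 0.936). The PFKFB3 call was lost without WT replicate 1 (adjusted p = 0.0517) or METTL3-KO replicate 2 (adjusted p = 0.0542). PKLR, the liver pyruvate kinase, and G6PC, the glucose 6-phosphatase of liver and kidney, had at most 2 counts in a sample and were not tested.

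Of the other alpha-arrestins, relatives of TXNIP, ARRDC2 was lower by a log2 fold change of -0.31 (adjusted p = 0.0117 from edgeR's test), ARRDC3 was higher by 0.43 (adjusted p = 0.0307) with overlapping groups, and ARRDC1 was at -0.18 (adjusted p = 0.176). These calls rest on single libraries, since ARRDC3 was lost without any 1 of 4 libraries and the number of lower genes went from 1 to 0 without WT replicate 2 or METTL3-KO replicate 1 or 2. ARRDC1 passed as lower without WT replicate 3 (-0.25) and without the third sample of both groups (-0.32). Among 7 genes of the thioredoxin system and TXNIP's partners, the glucose transporter gene SLC2A1 was lower (log2 fold change -0.24, SE 0.0712, adjusted p = 0.0238) and no gene was higher. The thioredoxin genes TXN (-0.07) and TXN2 (0.09), the reductases TXNRD1 (-0.01) and TXNRD2 (-0.18), the stress gene DDIT4 (-0.20) and the inflammasome sensor NLRP3 (0.23) did not pass, with adjusted p from 0.19 to 0.93. The SLC2A1 call was lost without WT replicate 1 or 2 or METTL3-KO replicate 1 or 3. Without the third sample of both groups 3 genes of the list were lower, TXN (-0.22), TXNRD2 (-0.30) and SLC2A1, and TXNRD1 was higher (0.11). That fit called 9378 genes in all, where the fit of all samples called 5945. With all samples, 26.5% of all tested genes and 41.1% of those at the members' level were called in either direction. The counts of these 2 short lists are therefore no result about the lists. TXNRD2 passed as lower without WT replicate 3 as well (-0.22).

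**Figure D2:**
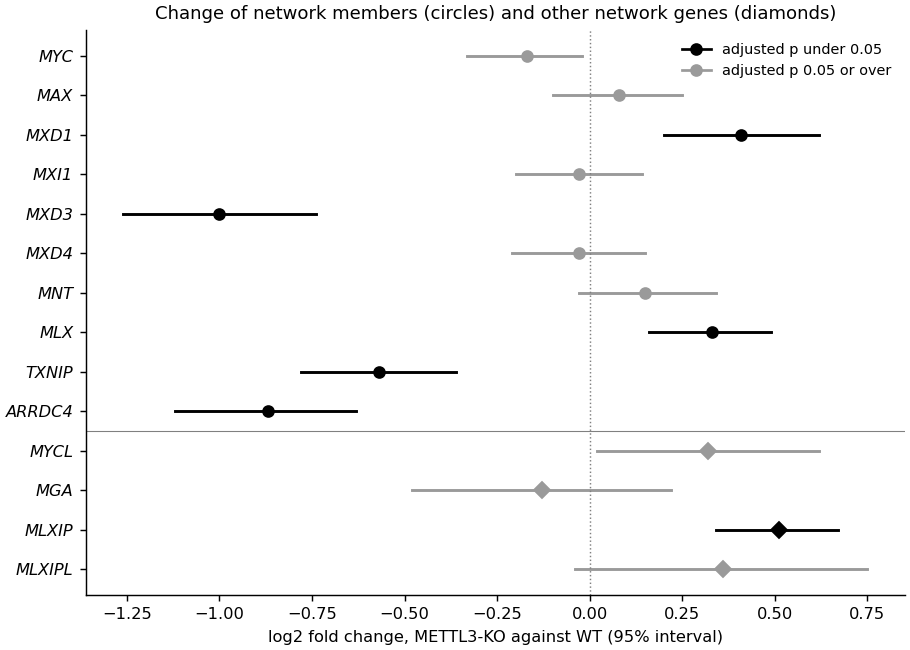
Log2 fold changes of METTL3-KO against WT with 95% intervals, for the 10 members (circles, above the line) and the 4 tested other network genes (diamonds). Black marks an adjusted p under 0.05, reached by MXD1, MXD3, MLX, TXNIP, ARRDC4 and MLXIP, and grey marks the genes that did not reach it.

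MXD3, an MXD repressor that is expressed in S phase of dividing cells, had the largest change of the 10 genes. It was at 29.7, 28.7 and 23.4 CPM in WT and at 13.5, 12 and 15.4 CPM in METTL3-KO samples, from 499 to 815 and 264 to 408 counts. The third sample was the lowest of WT and the highest of METTL3-KO, and the groups still did not overlap. The mean fell from 27.3 ± 3.38 to 13.6 ± 1.69 CPM (SD, n = 3 each), a log2 fold change of -1.0 (edgeR adjusted p = 8.59e-05, SE 0.118). Among the 9721 genes at or above 10.6 CPM, 2.14% had a larger fold change in either direction. Without the third sample of both groups it was -1.19, and it passed under all 14 alternatives. MXD3 (chromosome 5 of GRCh37, 176728462 to 176739758) shares 43.7% of its annotated exon bases with RAB24 on its own strand (926 bases) and PRELID1 on the opposite strand (1148 bases), and how reads there were assigned depends on the strand setting. RAB24 had a log2 fold change of -0.30 (adjusted p = 0.328) and PRELID1 of -0.02 (adjusted p = 0.906), and neither passed.

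MXD1, the MXD repressor that is induced when cells leave the cycle and differentiate, moved the other way. It was at 27.8, 25.7 and 30.9 CPM in WT and at 41.3, 34.3 and 36.4 CPM in METTL3-KO samples. The groups did not overlap, with METTL3-KO replicate 1 the highest. The log2 fold change was 0.41 (edgeR adjusted p = 0.00866, SE 0.098). Without METTL3-KO replicate 1 it was 0.33 and no longer passed (adjusted p = 0.055), while the other 13 alternatives kept it under the threshold. Per length, MXD1 stood at 0.383, 0.365 and 0.54 times MXD3 in the WT samples and at 1.25, 1.17 and 0.965 times MXD3 in the METTL3-KO samples.

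The remaining repressors did not pass the threshold. MXI1 was at 43.3, 42.3 and 39.3 CPM in WT and at 40, 42.9 and 39.9 CPM in METTL3-KO samples, with a log2 fold change of -0.03 and a 95% interval from -0.20 to 0.14. MXD4 was at 67.9, 67.9 and 60.1 CPM in WT and at 66, 59.6 and 66.5 CPM in METTL3-KO samples, also with a log2 fold change of -0.03 (95% interval -0.21 to 0.15). Both intervals leave out a change of the size seen in MXD3 or MXD1. MNT, a ubiquitous antagonist of MYC, was at 34, 38.2 and 37.9 CPM in WT and at 42.9, 41.8 and 37.7 CPM in METTL3-KO samples, so that METTL3-KO replicate 3 fell within the WT range. Its log2 fold change was 0.15 (95% interval -0.03 to 0.34, adjusted p = 0.212 from edgeR's test), and without the third sample of both groups it was 0.23 and passed (adjusted p = 0.00209).

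Of the SIN3 complex that the MXD proteins, MXI1 and MNT recruit, HDAC1, a histone deacetylase, rose by 0.46 (edgeR adjusted p = 0.000382, SE 0.0668), and SAP30, an adaptor of the complex, was lower by a log2 fold change of -0.64 (adjusted p = 0.00291, SE 0.128). The scaffolds SIN3A (-0.12) and SIN3B (-0.12), the deacetylase HDAC2 (0.13) and SUDS3 (0.08) did not pass, with adjusted p from 0.188 to 0.406. HDAC1 had 6280 to 8671 counts in WT and 9238 to 12683 in METTL3-KO samples. SAP30 was the least abundant gene of the list, with 109 to 202 counts.

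MYC and MAX, the activating pair, did not pass the threshold. MYC was at 192, 180 and 175 CPM in WT and at 165, 153 and 167 CPM in METTL3-KO samples, from 3365 to 5263 counts. All METTL3-KO samples lay below all WT samples, by a small margin. The means were 182 ± 8.72 and 162 ± 7.44 CPM (SD, n = 3 each), and the log2 fold change of -0.17 (SE 0.0719, 95% interval -0.33 to -0.02) had an unadjusted p of 0.0332 but an adjusted p of 0.099 from edgeR's test. The call changed with WT replicate 3: the change was -0.20 and passed without that sample (adjusted p = 0.0189), and -0.23 without the third sample of both groups (adjusted p = 1.39e-05). Once the length and GC content of transcripts were corrected for per sample it was -0.18 and passed too (adjusted p = 0.0194). Without METTL3-KO replicate 3 alone the change was -0.20 and did not pass (adjusted p = 0.121). Over the 14 alternatives the change ran from -0.23 to -0.13, with adjusted p from 1.39e-05 to 0.336. MAX was at 28.4, 30.9 and 28 CPM in WT and at 30.5, 29.7 and 31.8 CPM in METTL3-KO samples, with a log2 fold change of 0.08 (95% interval -0.10 to 0.25, adjusted p = 0.527).

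MYCL and MGA did not pass with all samples, and MYCN was not tested. MYCL, a MYC paralog, had 126 to 197 counts in WT and 161 to 262 in METTL3-KO samples, with a log2 fold change of 0.32 (edgeR adjusted p = 0.105, SE 0.136). MYCN, the neuronal paralog, had 1 count in 1 METTL3-KO sample and none in the others. MGA, a large MAX partner, had a log2 fold change of -0.13 (adjusted p = 0.585), and its values ran from 35.1 to 53.1 CPM in WT, with WT replicate 3 the highest. Without the third sample of both groups MYCL was higher by 0.40 (adjusted p = 0.00752) and MGA turned to 0.22 and was higher as well (adjusted p = 0.00348).

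Of 3 noncoding transcripts around MYC on chromosome 8, 2 were lower and 0 higher, with a median log2 fold change of -0.70. Beside this, 13.2% of all tested genes and 20.6% of those at the members' level were lower. PVT1, a long noncoding RNA whose start lies 59.1 kb from the MYC start on GRCh37, had 2792, 2235 and 2052 counts in WT and 1616, 1147 and 1344 in METTL3-KO samples. Its log2 fold change was -0.87 (edgeR adjusted p = 8.25e-06, SE 0.0725). CCAT1, a colon cancer associated noncoding RNA of the same region, had 2441, 2164 and 2941 counts in WT and 2170, 1489 and 1378 in METTL3-KO samples, with a log2 fold change of -0.70 (adjusted p = 0.00354, SE 0.144). CASC11, antisense to MYC, had only 8 to 18 counts per sample and did not pass (log2 fold change -0.26, adjusted p = 0.697). The number of lower transcripts was 2 of 3 under all 14 alternatives. Whether they differed from MYC in their change was not tested.

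Of 12 genes that control MYC protein turnover or act as its cofactors, 5 were lower and 2 higher, with a median log2 fold change of -0.11, against the 26.5% of all tested genes and the 41.1% at the members' level that were called. FBXW7, the ubiquitin ligase subunit that marks MYC for degradation, rose by 0.27 (adjusted p = 0.0337 from edgeR's test), and GSK3B, the kinase that prepares MYC for FBXW7, rose by 0.39 (adjusted p = 0.0129). USP28, a deubiquitinase that opposes FBXW7, was lower by a log2 fold change of -0.45 (adjusted p = 0.00242), and USP36, a nucleolar deubiquitinase of MYC, by -0.26 (adjusted p = 0.0292). KIAA1524, which encodes the phosphatase inhibitor CIP2A, was lower (-0.49, adjusted p = 0.00896), as were SKP2, a ubiquitin ligase subunit (-0.28, adjusted p = 0.0224), and WDR5, a chromatin cofactor of MYC (-0.26, adjusted p = 0.0281). AURKA, HUWE1, TRRAP and ZBTB17 did not pass, with log2 fold changes from -0.14 to 0.30 and adjusted p from 0.0647 to 0.865. The counts were unsteady: 2 to 5 of these genes were lower and 0 to 3 higher with a single library left out. None was left higher without METTL3-KO replicate 1, and 2 were left lower without METTL3-KO replicate 2. The FBXW7 call was lost without any 1 library except WT replicate 3. Without the third samples HUWE1 (0.36) and TRRAP (0.19, from -0.14 with all samples) were higher, so that 4 genes were higher and 6 lower.

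Genes that MYC is known to activate were listed as nucleolar genes and as growth and metabolic genes. The nucleolar list of 30 ribosome synthesis genes had 4 genes lower and 3 higher, and its median was 0.06 on the log2 scale. These 7 of 30 are below the 26.5% of all tested genes that were called, so the count is no result about the list. NOLC1, a nucleolar chaperone, rose by 0.74 (edgeR adjusted p = 1.4e-05, SE 0.0673), TCOF1, which promotes rDNA transcription, by 0.51 (adjusted p = 0.000325) and RRP12, a ribosome export factor, by 0.22 (adjusted p = 0.0433). NOP56 (-0.32), MRTO4 (-0.32) and NHP2 (-0.31), proteins of snoRNA particles and of the large ribosomal subunit's assembly, were lower without overlap of the groups, with adjusted p from 0.0154 to 0.0242, and FBL, the methyltransferase fibrillarin, was lower with overlapping groups (-0.32, adjusted p = 0.0282). A gene of the list that did not pass had only 29 to 52 counts and shares 49.2% of its exon bases with other genes. The calls depended on single libraries. RRP12 was lost without any 1 library except WT replicate 3. There were 0 lower without WT replicate 1 or 2 or METTL3-KO replicate 1 or 2, and 8 without WT replicate 3, which also left 6 higher. Without the third sample of both groups 9 were lower and 6 higher.

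The growth and metabolic list of 24 MYC-activated genes had a median log2 fold change of -0.10, with 11 genes lower and 0 higher in edgeR's test, against 13.2% of all tested genes and 20.6% of those at the members' level that were lower. At an adjusted p under 0.05, DESeq2 called 1 gene of this list higher. CDK4, the G1 cyclin-dependent kinase, had a log2 fold change of -0.64 (edgeR adjusted p = 8.23e-05, SE 0.0751), and TFRC, the transferrin receptor, of -0.54 (adjusted p = 0.00283). TERT, the telomerase catalytic subunit, was the lowest of the list at -1.38 (adjusted p = 0.00384, SE 0.289), but from only 21 to 29 counts in WT and 9 to 14 in METTL3-KO samples. CDK4 shares 44.2% of its exon bases with a gene on the other strand. Some genes of the list that did not pass had few counts and share exon bases, up to 47.4%, with other genes. With 1 library left out, 6 to 11 genes of the list were lower, with 6 without METTL3-KO replicate 1 and 7 without WT replicate 2 or METTL3-KO replicate 2. Without the third sample of both groups 14 were lower and 3 higher, and WT replicate 3 alone left 2 higher when taken out.

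Among 5 genes that MYC is known to repress, 3 were higher and 1 lower, with a median log2 fold change of 0.54. Of all tested genes 13.3% were higher and 13.2% lower, and of those at the members' level 20.4% and 20.6%. CDKN2B, the cell cycle inhibitor p15, rose by 0.94 (edgeR adjusted p = 1.79e-05, SE 0.0891), CDKN1A, the inhibitor p21, by 0.83 (adjusted p = 0.000229, SE 0.113) and NDRG1, a differentiation gene, by 0.54 (adjusted p = 0.0103, SE 0.133). CDKN2B had 375, 296 and 305 counts in WT and 833, 539 and 627 counts in METTL3-KO samples. The NDRG1 call was lost without METTL3-KO replicate 2 (0.36, adjusted p = 0.0549). The damage response gene GADD45A was lower (log2 fold change -0.37, adjusted p = 0.0111), a call that was lost without WT replicate 1 or METTL3-KO replicate 1 or 2, and CDKN1B, the inhibitor p27, was at 0.16 (adjusted p = 0.156). All of these have regulators besides MYC, and their share in the values was not tested.

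**Figure D3:**
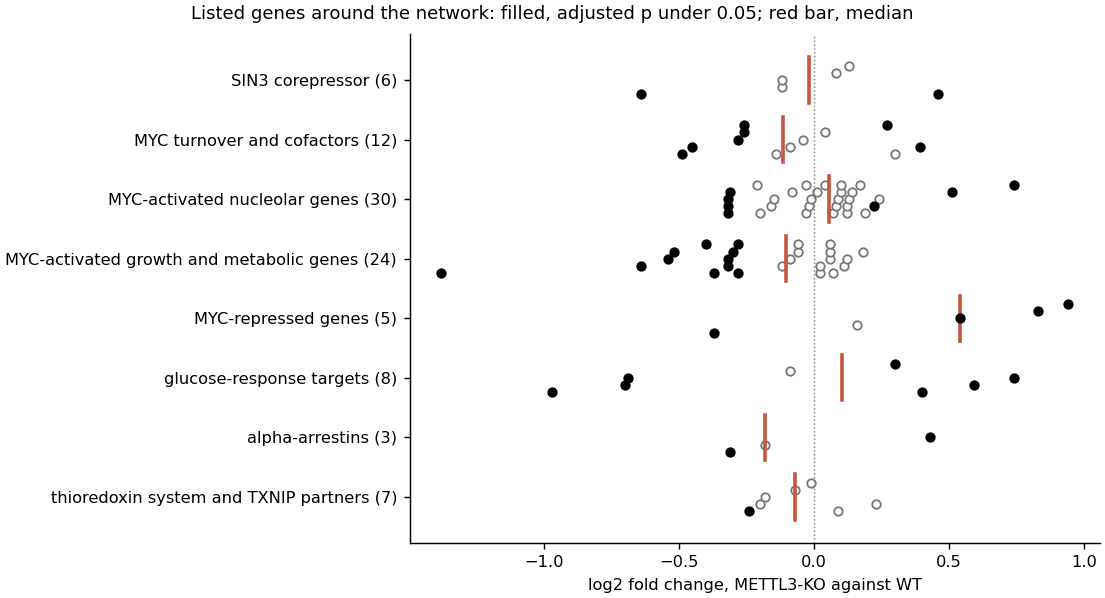
Log2 fold changes of METTL3-KO against WT for tested genes of 8 lists around the network, one point per gene (number tested in brackets), filled where the adjusted p is under 0.05, with the median as a red bar. The MYC-activated nucleolar genes lie on both sides of 0 with a median of 0.06, the growth and metabolic genes have 11 filled points, all below 0, and the glucose-response targets split into 3 filled points below and 4 above 0.

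The E-box word of the promoter search was in 11 of the 23 nucleolar genes and in 14 of the 21 growth and metabolic genes that had a RefSeq window, against 8.77% of all 27305 genes with one. It was also in 3 of the 6 glucose-response targets and 3 of the 7 MYC turnover and cofactor genes with a window. The promoters of the MYC-repressed genes with a window (3 genes) held 0. So did those of the other network genes, the SIN3 complex, the other alpha-arrestins and the thioredoxin list. A high share was thus not particular to the MYC-activated lists, and lists this small can hold 0 at the share of all genes. These counts describe the letters and carry no test.

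Levels can be compared between genes only per length, so CPM were divided by the length of each gene's longest annotated transcript in kb. In WT cells TXNIP (50.8 ± 3.21 CPM per kb) and MYC (49.0 ± 2.34) were the highest and their ranges overlapped (SD, n = 3 each). MLX followed at 32.4 ± 1.65, then MXD4 at 15.4 ± 1.06, and MXI1 and MXD3 at 12 each, with overlapping ranges. MAX (9.23 ± 0.489), MNT (7.45 ± 0.478), MXD1 (5.04 ± 0.476) and ARRDC4 (3.38 ± 0.298) were lower, with no overlap between neighbours in that order. In METTL3-KO cells MYC (43.4 ± 2 CPM per kb) and MLX (40.7 ± 2.08) were the highest, with overlapping ranges, followed by TXNIP at 34.3 ± 4.31. MXD3 dropped to the ninth place at 5.99 ± 0.743, where its range overlapped that of MXD1 (6.69 ± 0.641), and ARRDC4 stayed the lowest at 1.85 ± 0.177. The longest transcript need not be the one these cells use, so differences of order between genes are approximate.

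**Figure D4:**
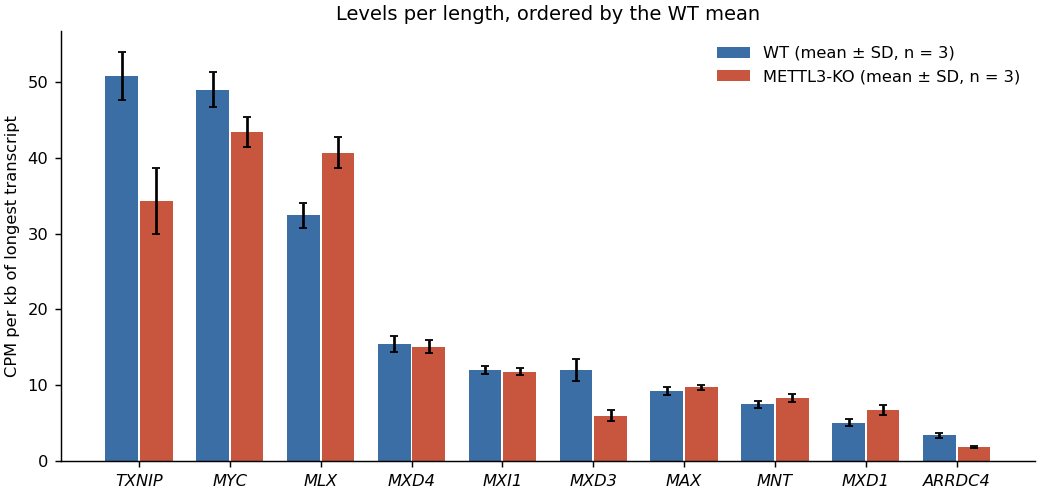
Mean level of each member per kb of its longest transcript (bars from 0, mean ± SD, n = 3), WT in blue and METTL3-KO in red, ordered by the WT mean. TXNIP falls from 50.8 to 34.3 CPM per kb and MLX rises from 32.4 to 40.7, so that MLX lies above TXNIP in METTL3-KO cells.

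The genes whose pattern over the 6 samples was most like that of a member were found by the root mean square difference of log2 CPM centred on the gene's mean, over the 12829 genes whose mean log2 CPM reached 1. For TXNIP they were ELFN1 (0.056), EIF2S2P3 (0.0611) and PARD6A (0.0637), a synaptic adhesion gene, a pseudogene and a polarity gene, with log2 fold changes of -0.68, -0.61 and -0.55. For MYC they were UMPS (0.0154), which encodes the last enzyme of pyrimidine synthesis, LAMP1 (0.0163), which encodes a lysosomal membrane protein, and RTKN (0.0164), with log2 fold changes of -0.16, -0.17 and -0.15. Fold changes close to a member's follow from how these genes were picked. ELFN1, at 1.36 to 2.81 CPM, and EIF2S2P3, at 1.99 to 3.75 CPM, were far below TXNIP in level.

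**Figure D5:**
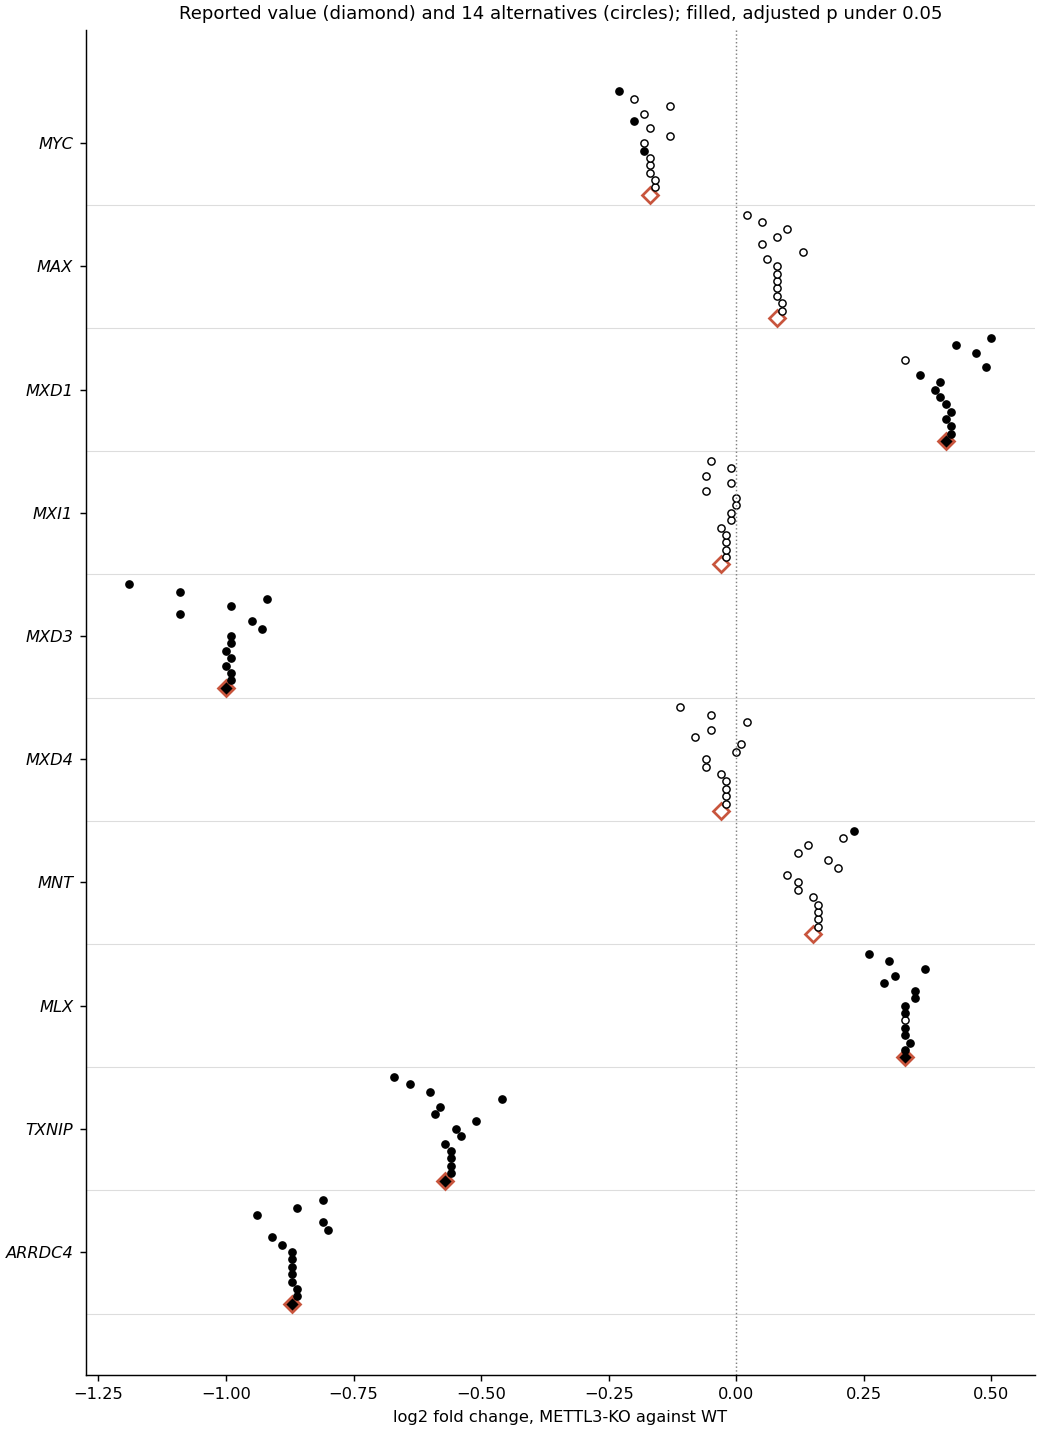
Log2 fold change of each member as reported (red-edged diamond) and under 14 alternatives (circles), filled where the adjusted p is under 0.05. TXNIP, ARRDC4 and MXD3 are filled throughout, MXD1 and MLX are each open once, MYC is filled in 3 alternatives and MNT in 1, and MAX, MXI1 and MXD4 are open throughout.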

How the data were processed

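RNA-seq counts of 3 WT and 3 METTL3-KO samples of HCT116 cells were analysed, grouped by the labels. For each gene symbol the files hold deposited, unnormalized counts, which the authors obtained with htseq-count (union mode) after aligning read pairs to hg19 in TopHat v2.0.11. Between 7.95% and 8.77% of reads in each sample were ambiguous between genes and are in no gene's count. The test took in the 22452 genes that reached a sum of 5 counts in at least 1 group, and METTL3-KO was compared with WT by edgeR's quasi-likelihood test (edgeR 4.0.16, R 4.3.3) with TMM scaling, two-sided, with Benjamini-Hochberg adjustment over all tested genes. The SE is the size of the log2 fold change divided by the square root of F, and 95% intervals use the test's degrees of freedom. Alternatives were DESeq2 1.42.0, RLE scaling, 2 other filters, the replicate block, a length and GC correction (splines with 5 degrees of freedom), and samples left out. Positions, transcript lengths and exon overlaps came from GENCODE on GRCh37, promoters from RefSeq on GRCh38.p14. The procedures were checked on simulated counts.

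The members and all gene lists were chosen with earlier results of these data known. Named genes are METTL3, all members, every tested gene of lists of up to 12 genes (1 of them is not reported here), from longer lists the 3 lowest and 3 highest called genes without overlap of the groups, and the genes most like TXNIP and MYC. FBL and the markers were named after their values were seen.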

Additional observations from a re-analysis of the deposited data

How the results depend on the processing

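TXNIP, ARRDC4, MXD3 and METTL3 kept their direction and passed under all 14 alternatives, and MAX stayed above 0 and did not pass in any. Deviations from the group means correlated at -0.585, -0.39 and -0.783 between same-numbered WT and METTL3-KO samples across 10320 genes and at -0.546 to 0.719 between the others, highest for WT replicate 1 with METTL3-KO replicate 3, so no sample correlated best with its own number, and nothing else pairs them. With the replicate block, 1719 genes were lower and 1810 higher, 1 member was higher (MLX at an adjusted p of 0.0634 from edgeR's test), 0 nucleolar and 5 growth and metabolic genes were lower, and it changed no other member's call. Without the third sample of both groups, 4823 genes were lower and 4555 higher, 9 nucleolar genes were lower and 6 higher, and 3 growth and metabolic genes were higher. The last number was 1 with DESeq2, RLE scaling or filterByExpr and 2 with the length and GC correction, which left 5 nucleolar genes higher. With each sample left out in turn, 1976 to 3793 genes were lower and 2188 to 3809 higher, 3 to 4 members lower and 1 to 2 higher, 0 to 8 nucleolar genes lower and 2 to 6 higher, and 6 to 11 growth and metabolic genes lower and 0 to 2 higher. MXD4 then ran from -0.08 to 0.02 on the log2 scale, changing sign to 0.00, 0.01 and 0.02 without WT replicate 1, WT replicate 2 or METTL3-KO replicate 2, and MXI1 ran from -0.06 to 0.00, changing sign without WT replicate 1. Fits with samples left out also rest on fewer samples, and the cause of these shifts was not tested. Depth limits TERT, FGF21, MYCN and CASC11, with under 30 counts in each sample.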
